A study of Mus musculus with 220 samples.

Results

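The genes described here make, export, degrade and sense sphingosine 1-phosphate (S1P): the exporter Spns2, the sphingosine kinases Sphk1 and Sphk2, the S1P lyase Sgpl1 and the receptor S1pr1. They were chosen by name, with earlier results of these data known. Their 5 rows were read from the 24049 gene symbols of a single-cell RNA sequencing table of mouse lymph node endothelium. S1P is a signalling lipid made inside cells when a kinase phosphorylates sphingosine. It leaves endothelial cells through the transporter Spns2, acts on G protein-coupled receptors of which S1pr1 is the main one in endothelium, and is cleaved irreversibly by the lyase. In lymph nodes S1P is known for guiding lymphocytes out of the tissue and for keeping the junctions of high endothelial venules tight.

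All mice were C57BL/6, and each cell was captured on the Fluidigm C1 system (a microfluidic chip that isolates single cells) and sequenced as its own library. Inflamed high endothelial cells (HEC) were taken on day 3 after 4% oxazolone, a contact sensitiser, was put on the skin. Dedifferentiated HEC came from mice given LTBR-Ig, which captures the ligands of the lymphotoxin β receptor, in 1 intraperitoneal dose, with harvest on day 7. Homeostatic HEC and homeostatic blood endothelial cells (BEC) came from untreated mice. HEC line the venules where lymphocytes enter the node, and the BEC are the comparison endothelium. The study set HEC against BEC and each treatment against homeostatic HEC.

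The table held 220 cells. Cells 43 and 60 of the inflamed HEC were near-identical (Pearson r 0.99 on log2 values, next closest pair 0.70), so they were averaged and counted as 1 cell. This left 64 inflamed HEC, 44 dedifferentiated HEC, 79 homeostatic HEC and 32 homeostatic BEC. The median number of genes at an FPKM (fragments per kilobase of transcript and per unit of sequencing depth) of 1 or more was 3961 in inflamed, 3075 in dedifferentiated and 3842 in homeostatic HEC, and 2871 in BEC. Depth, approximated from the smallest steps between low FPKM values, had medians of 2273745, 2133375, 1923210 and 2098254 fragments in that order of groups. At a median depth an FPKM of 1 corresponds to about 6.82 fragments of Spns2, 8.55 of Sphk1, 7.47 of Sphk2, 6.41 of S1pr1 and 9.18 of Sgpl1. These numbers take the longest annotated transcript of each gene, and a shorter transcript would give fewer fragments. By the medians of marker sums, HEC and BEC followed their labels. The 7 high endothelial genes summed to 17886 in inflamed, 17794 in dedifferentiated and 73100 in homeostatic HEC, against 427 in BEC. The 6 capillary genes summed to 830.2, 45.98, 43.9 and 10139 in that order. Glycam1 had the highest mean of the high endothelial list in HEC (19680, 18829 and 76371). By mean FPKM Fut7, Gcnt1 and Enpp2 were also lower in both treated groups than in homeostatic HEC. Ackr1 was higher in both (2281 and 1734 against 1219). Ubd was higher in inflamed HEC (7664 against 5872) and lower in dedifferentiated HEC (4171). Chst4 was similar (376, 417 and 395).

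The labels tie no cell to an animal or a chip, and so every group is 1 sample. There is therefore no replicate check and no test, and effects of treatment, animal, chip and harvest cannot be told apart. Every SD describes cells of 1 group, and intervals on shares are exact (Clopper-Pearson, 95%) and cover counting error only. Differences are differences of mean log2(FPKM + 1), a scale that understates the ratio of low genes. A difference past 1 or −1 is called higher or lower. An FPKM listed as 0 can also be a failed estimate. Where no cell reached a level, the share that this allows is given as 3 counts of the total, with the upper end of the exact interval beside it.

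**Figure D1:**
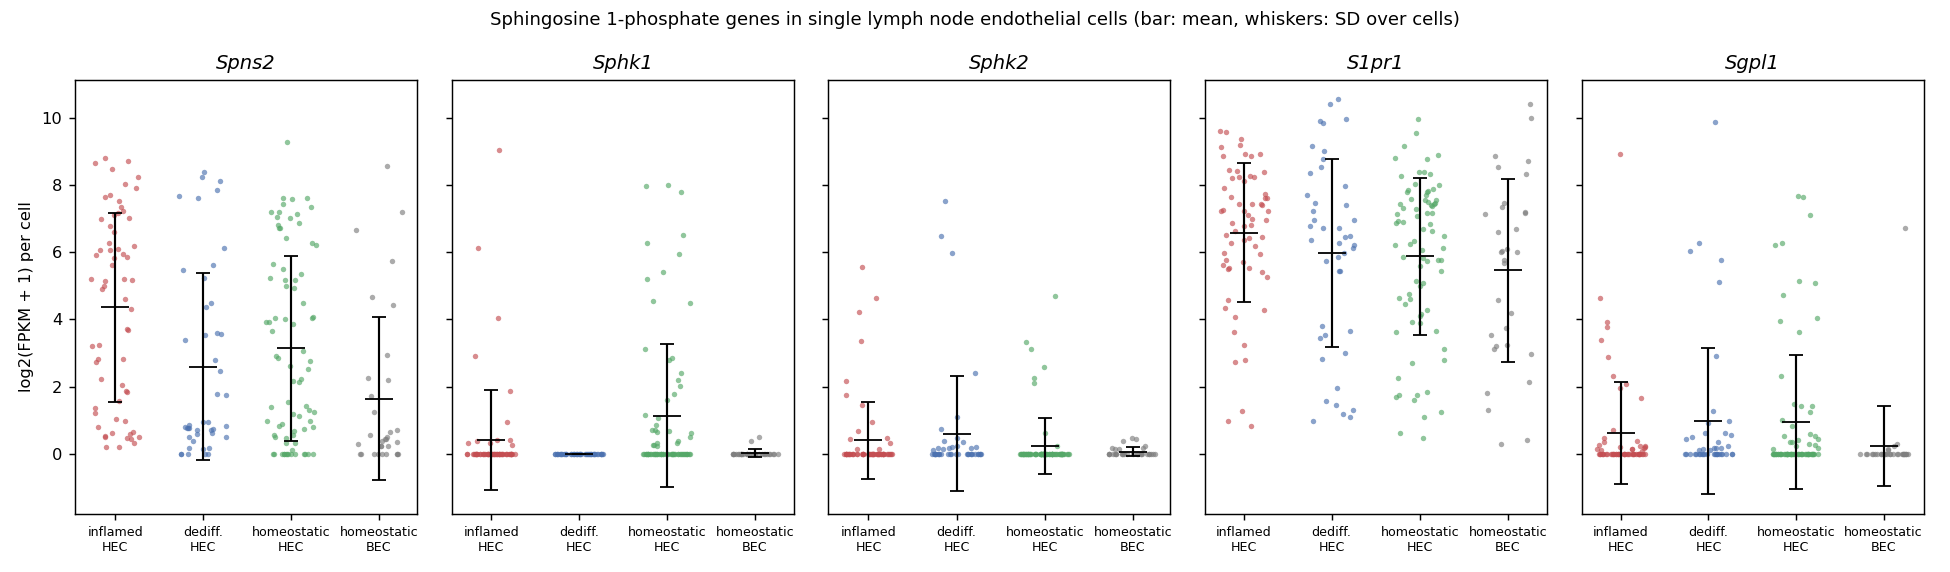
Level of each gene in every cell as log2(FPKM + 1), 1 point per cell, by group (inflamed, dedifferentiated and homeostatic HEC, homeostatic BEC). The bar is the mean and the whiskers the SD over cells. S1pr1 was above 0 in all 219 cells, Spns2 spread over the whole range, and most cells had no Sphk1, Sphk2 or Sgpl1.

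Spns2, the exporter (chromosome 11, 72451638 to 72489904, minus strand, GRCm38), was most often detected in inflamed HEC. Its FPKM ran from 0.15 over a median of 32.4 to 446.85 in inflamed HEC. In dedifferentiated HEC the lowest, median and highest values were 0, 0.89 and 333.39. In homeostatic HEC they were 0, 5.09 and 623.64, and in homeostatic BEC 0, 0.365 and 375.53. Every group therefore held cells below an FPKM of 1 and cells with very high Spns2, and all 4 distributions overlapped. No inflamed HEC was listed at 0, against 5 dedifferentiated HEC, 14 homeostatic HEC and 9 BEC.

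Spns2 reached an FPKM of 10 in 59.4% of inflamed HEC (46.4 to 71.5), 34.1% of dedifferentiated HEC (20.5 to 49.9), 44.3% of homeostatic HEC (33.1 to 55.9) and 18.8% of BEC (7.21 to 36.4). Mean log2 levels followed the same order of inflamed HEC (4.37 ± 2.81, SD, 64 cells), homeostatic HEC (3.14 ± 2.76, 79 cells), dedifferentiated HEC (2.59 ± 2.77, 44 cells) and BEC (1.65 ± 2.43, 32 cells). Neighbours in that order lay within their SD over cells. Within groups Spns2 was higher in cells with more genes, as a description over cells that share library and depth: r was 0.29 in inflamed, 0.27 in dedifferentiated and 0.30 in homeostatic HEC, and 0.44 in BEC.

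The difference in Spns2 was 1.23 between inflamed and homeostatic HEC, at percentile 96.8 of the differences of 9525 genes. It was the only gene of the 5 past 1 in that comparison, where 5.48% of all genes were higher by 1 or more and 2.6% lower. Homeostatic HEC were 1.49 above BEC in Spns2 (percentile 91), and there 17% of 9248 genes were higher by 1 or more and 4.4% lower. Against BEC, inflamed HEC were 2.72 higher (percentile 97.4), in a comparison with 21.8% of 9357 genes past 1, and dedifferentiated HEC were 0.95 higher, where 11.3% of 8385 genes were past 1. Dedifferentiated HEC differed from homeostatic HEC by −0.54. Inflamed minus BEC was the largest of these differences and the only one above 1 pooled SD over cells (1.04 SD).

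When cells were matched on their number of genes, the difference in Spns2 was 0.89 for inflamed against homeostatic HEC and 0.69 for homeostatic HEC against BEC, both below 1. Those differences were also below 1 at a pseudocount of 10 (0.71 and 0.70) and as log2 ratios of arithmetic means (0.86 and 0.89). For dedifferentiated against homeostatic HEC the Spns2 difference was 0.17 with matching and 0.04 with median-ratio size factors, both a turn of sign. As a log2 ratio of arithmetic means it was −0.04. All genes there had a median difference of −0.30 before these alternatives. Inflamed HEC stayed above BEC in Spns2 under every alternative tried (1.41 to 3.95).

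**Figure D2:**
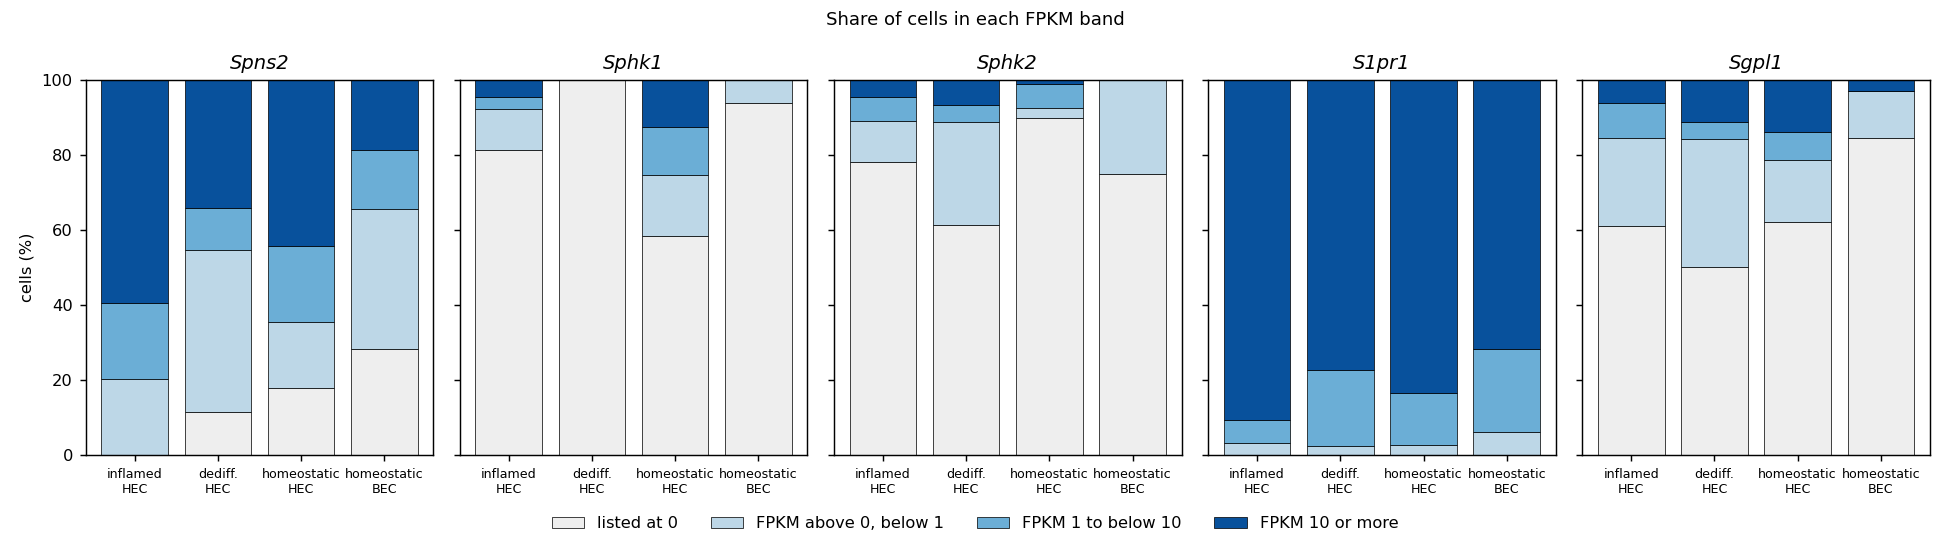
Percent of cells of each group in 4 FPKM bands: listed at 0, above 0 and below 1, from 1 to below 10, and 10 or more. Spns2 reached 10 or more in 38 of 64 inflamed HEC and 6 of 32 BEC, and Sphk1 was listed at 0 in all 44 dedifferentiated HEC.

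Sphk1 (chromosome 11, 116530925 to 116536674, plus strand), which phosphorylates sphingosine to S1P mainly in the cytoplasm and at the plasma membrane, was detected in a minority of cells and unevenly over the groups. It had an FPKM of 1 or more in 5 of 64 inflamed HEC (7.81%, 2.59 to 17.3), in 0 of 44 dedifferentiated HEC, which allows a share of up to 6.82% (exact upper end 8.04%), in 20 of 79 homeostatic HEC (25.3%, 16.2 to 36.4), and in 0 of 32 BEC, which allows up to 9.38% (exact upper end 10.9%). Its highest value was 524.42 in inflamed HEC, 0 in dedifferentiated HEC, 254.02 in homeostatic HEC and 0.42 in BEC. Of the 9008 genes set side by side for dedifferentiated and homeostatic HEC, 34 (0.377%) were listed at 0 in every dedifferentiated cell, and Sphk1 was among them. Such genes entered the comparison only through their detection in homeostatic HEC. The share therefore does not tell how rare this is among genes as sparse as Sphk1.

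Sphk1 was 1.14 lower in dedifferentiated than in homeostatic HEC (percentile 6.33) on the log2(FPKM + 1) scale, where 9.52% of all genes were lower by 1 or more and 0.833% higher. Inflamed HEC lay 0.71 below homeostatic HEC in Sphk1 (percentile 5.33), short of −1. Homeostatic HEC were 1.11 above BEC (percentile 85.2), where 17% of 9248 genes were higher by 1 or more and 4.4% lower. There too Sphk1 entered only through its detection in homeostatic HEC. Sphk1 and Spns2 were the members past 1 in that comparison, and Sphk2 (0.17) did not pass its detection filter. At a pseudocount of 10 these Sphk1 differences were −0.46 for dedifferentiated against homeostatic HEC and 0.46 for homeostatic HEC against BEC, and the last was 0.87 in cells matched on gene number. Mean FPKM was 9.69 in inflamed HEC and 14.1 in homeostatic HEC, but cell 64 of the inflamed HEC alone held 84.6% of the sum over inflamed HEC, and the mean without it was 1.51. The cells at an FPKM of 10 or more in Sphk1 numbered 3 inflamed and 10 homeostatic HEC, 13 of 219 cells in all.

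Platelets and lymphatic endothelium are known sources of S1P, and their markers were read beside these values. Of the 5 platelet markers, Ppbp, Gp1bb and Gp9 were listed at 0 in every cell. The list summed to medians of 0.57 in inflamed, 0 in dedifferentiated and 3.98 in homeostatic HEC and 0 in BEC, with highest sums of 357.83, 384.55, 1571.91 and 209.63, and the higher level in homeostatic HEC was that of Pf4 (mean FPKM 20.9, 15.3, 160.2 and 8.47). Itga2b, the remaining marker, averaged 0.90, 0.71, 0.39 and 0.0053. Cells that held 2 or more markers of any other cell type at an FPKM of 10 or more were marked. They were 4 of 64 inflamed, 4 of 44 dedifferentiated and 9 of 79 homeostatic HEC and 1 of 32 BEC. Only 1 homeostatic HEC met this for the platelet list and 1 dedifferentiated HEC for the lymphatic list. Without the marked cells, Sphk1 differed by −1.17 between dedifferentiated and homeostatic HEC and by 1.16 between homeostatic HEC and BEC. Spns2 then differed by 1.32 between inflamed and homeostatic HEC. With so few cells marked by these lists, this was no check on platelet or lymphatic transcripts, whose part was not tested. Of the 6 lymphatic markers, Prox1 and Reln were listed at 0 in every HEC. Lyve1 of the same list reached an FPKM of 10 in 16 of 64 inflamed and 1 of 44 dedifferentiated HEC. It did so in 3 of 79 homeostatic HEC and 0 of 32 BEC. Flt4 reached that level in 3 inflamed, 2 dedifferentiated and 0 homeostatic HEC and in 9 BEC. The lymphatic list summed to medians of 0.365, 0, 0 and 0.28 in the same order, with highest sums of 725.48, 522.17, 308.15 and 133.68.

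Sphk2 (chromosome 7, 45709467 to 45718002, minus strand), the other kinase, which is found in the nucleus and mitochondria as well, was also sparse. It was detected at 1 in fewer homeostatic HEC than Sphk1 and in slightly more inflamed and dedifferentiated HEC. It reached an FPKM of 1 in 7 of 64 inflamed HEC (10.9%), 5 of 44 dedifferentiated HEC (11.4%), 6 of 79 homeostatic HEC (7.59%) and 0 of 32 BEC, which allows up to 9.38% (exact upper end 10.9%). Its highest values were 46.07, 181.24, 24.81 and 0.4 in those groups, and medians were 0 in all of them. Both kinases were at 1 or more together in 2 inflamed HEC and 1 homeostatic HEC, and in no dedifferentiated HEC or BEC. Kinase detection was then lower than that of the exporter in every group.

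Sgpl1 (chromosome 10, 61098642 to 61147703, minus strand), the lyase, was at 1 or more in 10 of 64 inflamed HEC (15.6%), 7 of 44 dedifferentiated HEC (15.9%), 17 of 79 homeostatic HEC (21.5%) and 1 of 32 BEC (3.12%). Outside homeostatic HEC a single cell held most of its sum: the top cell had 85.5% of the group sum in inflamed HEC, 79.5% in dedifferentiated HEC, 24.1% in homeostatic HEC and 99.4% in BEC. The log2 differences were −0.34 for inflamed and 0.03 for dedifferentiated against homeostatic HEC, and 0.72 for homeostatic HEC against BEC. None of these passed 1.

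S1pr1 (chromosome 3, 115710433 to 115715072, minus strand), the receptor, was the most widely detected gene of the 5 and was never listed at 0. Its lowest, median and highest FPKM were 0.77, 125.0 and 771.33 in inflamed HEC. They were 0.97, 83.5 and 1484.31 in dedifferentiated HEC, 0.39, 88.2 and 984.9 in homeostatic HEC, and 0.23, 63.6 and 1343.39 in BEC. The 4 groups overlapped almost wholly, with cells below an FPKM of 1 and cells with very high values in each. At an FPKM of 10 or more were 58 of 64 inflamed HEC (90.6%), 34 of 44 dedifferentiated HEC (77.3%), 66 of 79 homeostatic HEC (83.5%) and 23 of 32 BEC (71.9%).

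In S1pr1 inflamed HEC lay 0.71 above homeostatic HEC (percentile 88.6), dedifferentiated HEC 0.09 above them and homeostatic HEC 0.42 above BEC, none past 1. Inflamed HEC lay 1.12 above BEC, where the median of all genes was 0.37. That value was −0.16 with median-ratio size factors and 0.63 in cells matched on gene number, and homeostatic HEC against BEC was −0.69 with size factors. The direction of S1pr1 against BEC therefore depended on the scaling for inflamed and homeostatic HEC. Dedifferentiated HEC lay 0.51 above BEC, and 0.09 to 0.71 above them under the alternatives tried. Dedifferentiated minus homeostatic HEC also moved, from −0.02 without cells with markers of other cell types to 0.99 with size factors. The median of all genes in that comparison was −0.30.

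Nearly every HEC and BEC with Spns2 also had S1pr1, which was at 1 or more in 212 of 219 cells, and fewer had a kinase as well. Spns2 and S1pr1 were both at 1 or more in 49 of 64 inflamed HEC (76.6%), 19 of 44 dedifferentiated HEC (43.2%), 50 of 79 homeostatic HEC (63.3%) and 11 of 32 BEC (34.4%). Only 2 inflamed, 1 dedifferentiated and 1 homeostatic HEC had Spns2 without S1pr1. Spns2 together with at least 1 kinase was found in 8 inflamed HEC (12.5%, 5.55 to 23.2), 2 dedifferentiated HEC (4.55%, 0.555 to 15.5) and 20 homeostatic HEC (25.3%, 16.2 to 36.4), and in 0 of 32 BEC. Spns2 without a detected kinase was found in 67.2% of inflamed, 40.9% of dedifferentiated and 39.2% of homeostatic HEC and in 34.4% of BEC. At a limit of 10, Spns2 with a kinase was found in 7.81% of inflamed, 2.27% of dedifferentiated and 7.59% of homeostatic HEC and in 0 of 32 BEC. Counting any value above 0, it was found in 29.7%, 31.8%, 43% and 25% in that order. The order of the groups therefore depended on the limit. Above 0, homeostatic HEC had Spns2 without a kinase in 39.2% of cells. A kinase transcript below the detection limit of a cell cannot be told apart from one that is absent.

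**Figure D3:**
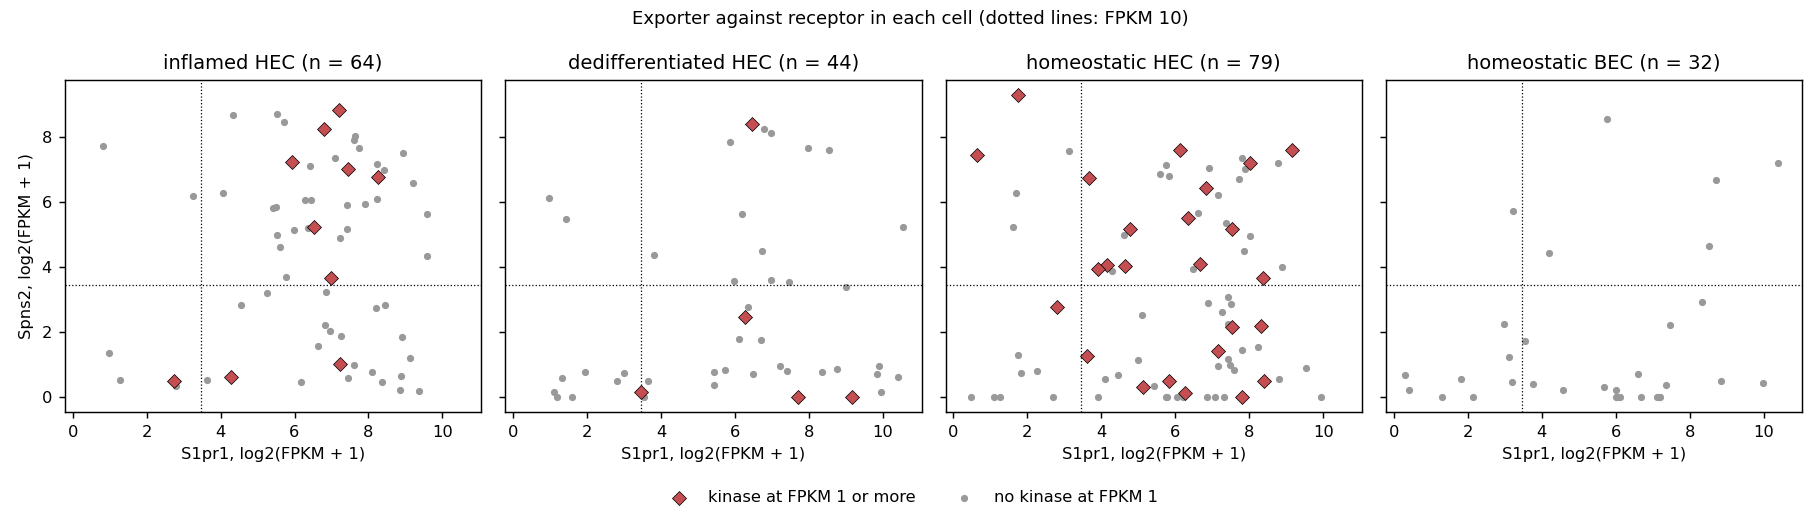
Spns2 against S1pr1 in each cell, both as log2(FPKM + 1), by group. Red diamonds are cells with Sphk1 or Sphk2 at an FPKM of 1 or more and grey points are the other cells; dotted lines mark an FPKM of 10. Kinase-positive cells numbered 10 inflamed, 5 dedifferentiated and 25 homeostatic HEC and no BEC.

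Among homeostatic HEC with Spns2 at 10 or more, a kinase was at 1 or more in 15 of 35 (42.9%, 26.3 to 60.6), and among those below 10 in 10 of 44 (22.7%, 11.5 to 37.8). In inflamed HEC these shares were 7 of 38 (18.4%) and 3 of 26 (11.5%), and in dedifferentiated HEC 1 of 15 and 4 of 29. The intervals overlapped within each group. Levels of Spns2 and S1pr1 were nearly unrelated within the HEC groups: r was 0.06 in inflamed, 0.13 in dedifferentiated and 0.03 in homeostatic HEC. In BEC r was 0.26.

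The BEC with Spns2 formed a small set. The 6 BEC at an FPKM of 10 or more were cells 10, 27, 16, 2, 22 and 14. Of the 7 high endothelial genes, Ubd and Enpp2 varied most closely with Spns2 over all 32 BEC (r 0.69 and 0.48). The others lay lower, with r of 0.22 for Fut7, 0.18 for Chst4, 0.03 for Ackr1, −0.09 for Glycam1 and −0.17 for Gcnt1. With the number of genes per cell, r of Spns2 in BEC was 0.44. The 6 cells had Ubd values of 228.91, 52.06, 154.99, 14.34, 69.22 and 27.79, against up to 101.85 in the other BEC (cell 13, Spns2 0.36). Their Glycam1 values were 32.83, 88.85, 56.15, 130.11, 167.13 and 40.71, against up to 594.2 in the other BEC. Without the 2 BEC highest in Spns2, an alternative chosen after seeing the data, r was 0.53 with Ubd and 0.42 with Enpp2. Whether these BEC differ from the other BEC in type was not tested. Sums over the capillary list in these 6 cells lay between 8942 and 15734, within the range of the other BEC.

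Genes whose pattern over cells was most like that of a member were sought among the 3733 genes detected at 1 or above in at least 20% of each group. The closest to Spns2 were Dag1 (mean r 0.30 over the 4 groups, from 0.04 to 0.66), Ms4a6b (0.30, from 0.07 to 0.60) and Tcf12 (0.30, from 0.02 to 0.70). Each had its highest r in BEC. The closest to S1pr1 were Bcas2 (0.28, from 0.20 to 0.43), Lamb2 (0.28, from 0.11 to 0.60) and H2-T24 (0.26, from 0.17 to 0.35). For Sphk1 and Sgpl1, over the 79 homeostatic HEC only, they were Fam76a (0.43), Arhgef1 (0.38) and Rp9 (0.38), and Exosc8 (0.49), Setd5 (0.40) and Luc7l2 (0.36). By Spearman correlation the 3 genes closest to Spns2 had 0.26, 0.22 and 0.26 and ranked 32, 126 and 40 of 3733, and Arhgef1 ranked 522 for Sphk1, so the closest genes changed with the measure. These weak values across sparse cells share library and depth and are given as a description.

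Of the other S1P receptors, S1pr2, S1pr3 and S1pr5 were little detected. S1pr2 reached 1 in 1 homeostatic HEC and S1pr3 in no cell, and S1pr5 was listed at 0 in every cell. S1pr4, a receptor known from lymphocytes, was at 1 or more in 28.1% of inflamed, 15.9% of dedifferentiated and 29.1% of homeostatic HEC and 31.2% of BEC. Its differences lay between −0.24 and −0.05 in the comparisons of homeostatic HEC with BEC and of treated with homeostatic HEC. The 6 markers of leukocytes in general summed to medians of 0.75 in inflamed, 0.415 in dedifferentiated and 2.81 in homeostatic HEC and 1.195 in BEC. Their highest sums were 729.72, 997.17, 3212.85 and 199.29 in that order, and their part in the S1pr4 values was not tested.

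Of the other 54 pathway genes, 41 passed the detection filter for homeostatic HEC against BEC, and 12 were higher and 3 lower by 1 or more (median 0.41, against 0.28 for all genes, of which 17% were higher and 4.4% lower). The balance depended on the processing, with 5 higher and 7 lower under median-ratio size factors and 9 of each with ratios of arithmetic means. The genes lower in HEC were Ppap2a (−3.91) and Ppap2b (−4.26), surface phosphatases that dephosphorylate S1P and other lipids, and the ceramidase Acer2 (−1.04). Ppap2b had a median FPKM of 18.6 in homeostatic HEC and 391 in BEC, and was at 1 or more in all 32 BEC. Higher in HEC were Ugcg (4.41), which makes glucosylceramide, Degs1 (1.55), which makes ceramide, the ceramidases Asah1 (1.02), Asah2 (1.10) and Acer3 (1.12), the transporters Abca1 (1.26) and Abcg2 (2.38), and Arrb1 (2.21), an arrestin that desensitises receptors. Kdsr (1.26), Cers4 (1.35), Gna12 (1.56) and Rac1 (1.27) made up the rest.

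Between inflamed and homeostatic HEC 6 of 41 pathway genes were higher and 3 lower (median 0.21 against 0.10 for all genes, of which 5.48% were higher and 2.6% lower). In cells matched on gene number 3 were higher and 3 lower. The higher ones were the phosphatases Ppap2a (1.38) and Ppap2c (1.15), the ceramidases Acer2 (1.12) and Acer3 (1.07), Rac1 (1.27) and Sptlc2 (1.37), a subunit of the enzyme that starts sphingolipid synthesis. Abcg2 (−1.50), Asah1 (−1.11) and Gna12 (−1.24) were lower. Klf2, a transcription factor known in T cells to activate S1pr1, differed by 0.67 here, by −0.94 between dedifferentiated and homeostatic HEC and by −0.72 between homeostatic HEC and BEC. The S1pr1 differences in these comparisons were 0.71, 0.09 and 0.42.

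Between dedifferentiated and homeostatic HEC 1 of 40 pathway genes was higher, Acer3 (1.40), and 3 were lower, Abcg2 (−1.05), Asah1 (−1.72) and Degs1 (−1.62), with a median of −0.32 against −0.30 for all genes, of which 0.833% were higher and 9.52% lower. With median-ratio size factors 4 were higher and 1 lower. The list median thus lay next to that of all genes, and the number of genes per cell was lower as well, with medians of 3075 in dedifferentiated and 3842 in homeostatic HEC.

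**Figure D4:**
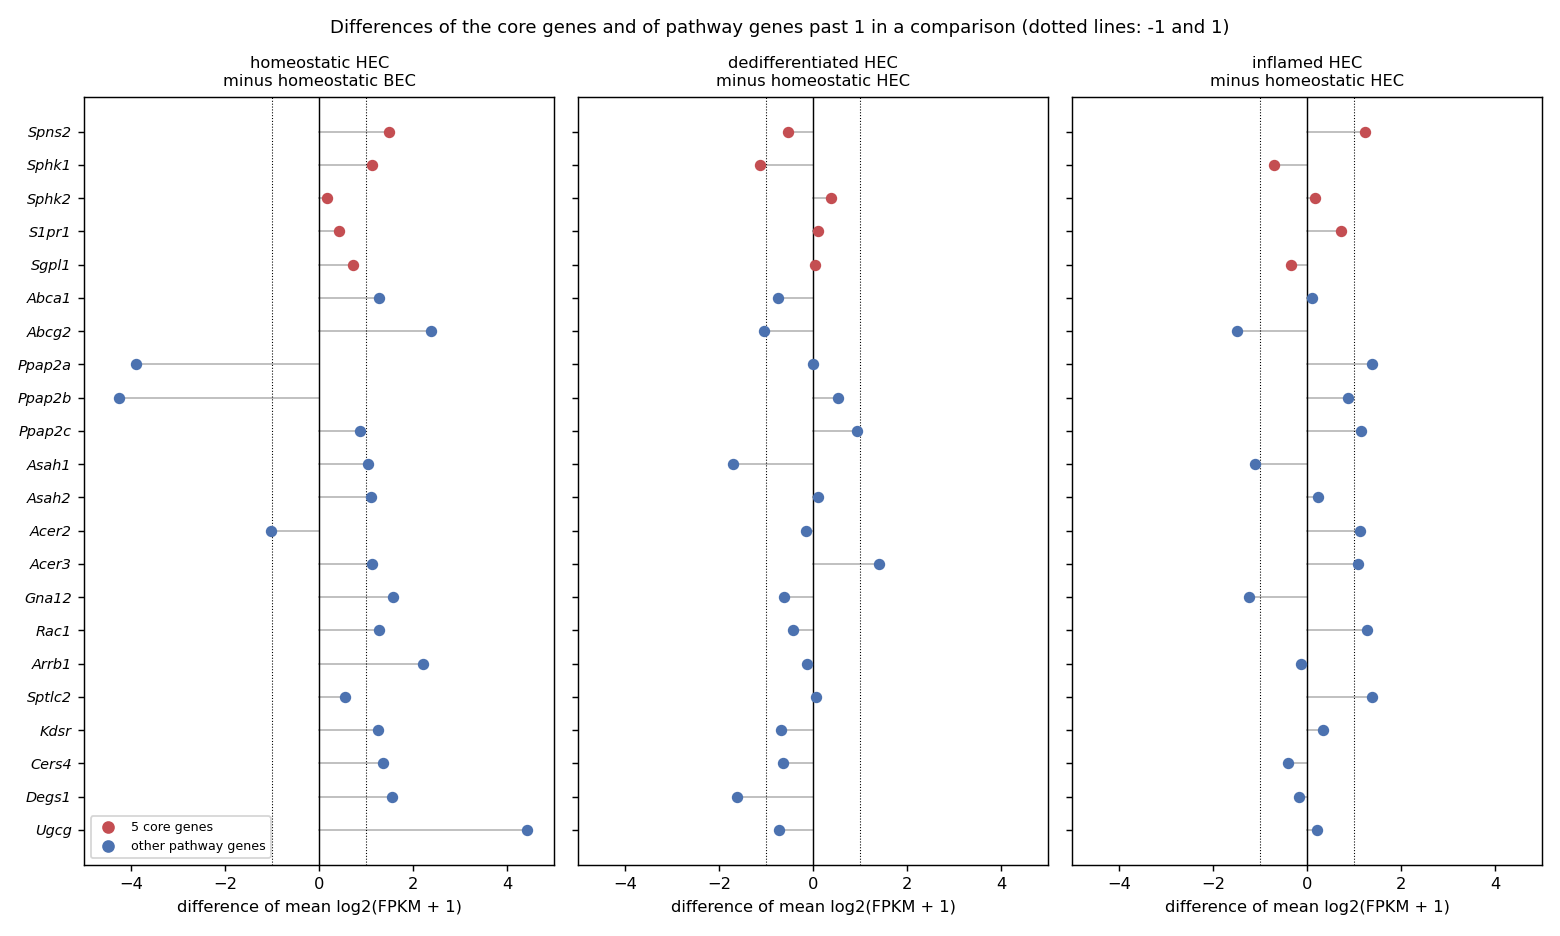
Difference of mean log2(FPKM + 1) for the 5 genes (red) and for the 17 other pathway genes (blue) past 1 or −1 in at least 1 of 3 comparisons: homeostatic HEC minus BEC, dedifferentiated minus homeostatic HEC, inflamed minus homeostatic HEC. Dotted lines are at −1 and 1. Ppap2a (−3.91) and Ppap2b (−4.26) lie lowest in homeostatic HEC against BEC, and Ugcg (4.41) highest.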

How the data were processed

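Per the labels' protocols, endothelial cells were sorted from dissociated nodes and their RNA was processed cell by cell on a Fluidigm C1 chip. The deposited values are FPKM made by the authors, with 2 decimals for 220 cells, of which 76% are 0. The build mm10 and the tools RSEM 1.2.18 and CASAVA 1.8 are named, per the submitters' processing notes; which step each served, and the annotation, is not given in the sources used here. Both the members and the lists were chosen with earlier results of these data known. The design gave no test, because samples are single cells with no animal named. From the deposited FPKM, log2(FPKM + 1), means, SDs, differences and shares with exact 95% intervals were computed with Python 3.11.15, numpy 2.4.6, pandas 2.3.3, scipy 1.17.1 and matplotlib 3.10.9. The difference routine and the depth estimate, which used 1407 genes, were tested on simulated data. Genes entered a comparison when at an FPKM of 1 or more in over 10% of the cells of at least 1 group. Inflamed cells 43 and 60 (SD of log2 ratios 0.128 over 1524 genes) were averaged. The pathway genes that could be named, not all of which are, were those past 1 or −1 in a comparison or at 1 or more in 50% of the cells of a group, and S1pr2 to S1pr5. Positions come from GENCODE M21 (GRCm38), which holds 94.6% of the symbols. Alternatives were pseudocounts of 0.1 and 10, ratios of arithmetic means, rescaling to a sum of 1000000, median-ratio size factors, matching on gene number in bins of 500, leaving out cells with 2 or more markers of another cell type, keeping cells 43 and 60 apart, leaving out the cells lowest in gene number, other detection limits and Spearman correlation.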

Additional observations from a re-analysis of the deposited data

How the results depend on the processing

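Of 325 alternative values, 283 stayed within 1 SD over cells, the interval of a share or 1.5 times a count, 41 moved beyond that and 1 value past 1 turned sign. That one was S1pr1 in inflamed HEC against BEC, 1.12 as reported and −0.16 with median-ratio size factors, and the cause was not tested. The SD over cells is a wide limit, so a value within it can still have changed much. S1pr1 in homeostatic HEC against BEC stayed within its SD of 2.53 while going from 0.42 to −0.69 with size factors. Scaling shifted the median difference of all genes as well, in homeostatic HEC against BEC to −0.04 with size factors and 0.03 with matching on gene number, against 0.28. Ratios of arithmetic means, which follow the top cells, gave for Sphk1 8.75 in homeostatic HEC and 8.21 in inflamed HEC against BEC. For Sphk2 they gave 3.46 in dedifferentiated and 1.27 in inflamed HEC against homeostatic HEC, and 4.72 in inflamed, 6.92 in dedifferentiated and 3.45 in homeostatic HEC against BEC. For Sgpl1 in dedifferentiated HEC against BEC they gave 3.01. They gave no value for Sphk1 in dedifferentiated HEC, which is listed at 0. At a pseudocount of 0.1, Sphk1 in dedifferentiated HEC against BEC was −0.14. Counts of higher pathway genes in homeostatic HEC against BEC (12) were 2 at pseudocount 10, 5 with size factors and 6 with matching, and of lower ones (3) were 6 at pseudocount 0.1, 9 with means, 5 with rescaling and 7 with size factors. In dedifferentiated against homeostatic HEC the higher ones (1) were 2 at pseudocount 0.1, 0 at 10, 8 with means, 2 with rescaling, 4 with size factors and 3 with matching, and the lower ones (3) were 7 at 0.1, 1 at 10, 6 with means and 1 with size factors. In inflamed against homeostatic HEC the higher ones (6) were 12 at 0.1, 0 at 10 and 3 with matching, and the lower ones (3) were 1 at 10. Spns2 with a kinase, counting any value above 0, was found in 29.7% of inflamed, 31.8% of dedifferentiated and 43% of homeostatic HEC and in 25% of BEC. At a limit of 10 it was found in 7.81% of inflamed, 2.27% of dedifferentiated and 7.59% of homeostatic HEC. By Spearman correlation Sphk1 had 0.17 with Arhgef1 and 0.23 with Rp9, and Sgpl1 had 0.30 with Exosc8, 0.24 with Setd5 and 0.24 with Luc7l2. No paired analysis was possible because numbers in the titles only name cells and no result comes from a test. Depth and cell number limit what a 0 means: 44 dedifferentiated HEC without Sphk1 allow a share of up to 6.82% as 3 counts of the total, and of 8.04% by the exact interval.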
